A study of Mus musculus with 6 samples.

Results

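The 10 genes described here encode the troponins and tropomyosins of skeletal muscle, and they were chosen by symbol from the 16759 genes of the deposited table. Troponin C is given by Tnnc1 in slow fibres and Tnnc2 in fast fibres, troponin I by Tnni1 and Tnni2, and troponin T by Tnnt1 and Tnnt3. The tropomyosins are Tpm1, Tpm2, Tpm3 and Tpm4. Their transcripts were measured in hind leg muscle of 6 male C57BL/6J mice, 8 weeks old when the study began, each sequenced as a library of its own. The 3 EX mice trained on a treadmill for 6 weeks, with 5 sessions of 60 min in each, and covered 22 km per mouse. Their muscle was taken 24 h after the final run. The 3 Con mice were kept without treadmill training. The labels give no genotype, transgene or drug for either group. The RNA came from a small piece of hind leg muscle, and the labels do not name the muscle, so a change in transcripts and a difference in the piece taken cannot be told apart.

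Troponin and tropomyosin make the thin filament responsive to calcium. Tropomyosin lies along actin and covers the sites that myosin binds. Troponin C binds calcium, troponin I holds the thin filament in the off state, and troponin T ties both to tropomyosin. Slow fibres, which contract for long periods on oxidative metabolism, and fast fibres build this switch from different genes. Tpm1 gives the main tropomyosin of fast fibres, Tpm3 that of slow fibres, and Tpm2 a partner used in both. Tpm4 and shorter products of Tpm1 and Tpm3 belong to the cytoskeleton of many cells.

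Total counts per library ranged from 13845362 to 15585048 in Con and from 16080487 to 16240431 in EX, and all 6 libraries were used. All 10 of the genes listed as markers of skeletal muscle were measured. Their summed level was 127067 to 133266 CPM in Con and 134593 to 141465 in EX, higher in EX without overlap. CPM is the count scaled to library size with TMM factors. The 10 troponin and tropomyosin genes together took 5.54% to 5.74% of all counts in Con and 5.91% to 6.03% in EX, without overlap. Tnnt3, Tpm1, Tnnc2 and Tnni2 were among the 20 most abundant genes in the table.

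All 10 genes passed the filter on low values, a mean of at least 1 FPKM, and Tnni1, at 0.537 FPKM in Con, did so only through its EX libraries. By edgeR's quasi-likelihood test on counts, adjusted over all 10883 genes tested, 8 of the 10 were higher in EX at a threshold of 0.05 and 0 were lower, while on the FPKM and TPM scales with limma 4 were higher, the 3 slow troponins and Tpm3. Of all genes tested on counts, 17.9% passed, 9.11% as higher and 8.8% as lower in EX. With limma, 3.78% were higher on log2(FPKM + 0.1) and 3.12% on log2(TPM + 0.1). The EX and Con values in CPM did not overlap for 9 of the 10 genes, against 33.7% of all genes tested. The median log2 fold change of the 10 genes was 0.18, against -0.00090 for all genes tested. The size of the change split the genes by fibre type. It was between 4.26 and 4.84 on the log2 scale for the slow troponins and 0.58 for Tpm3, and at most 0.19 for each of the other genes. The samples are bulk tissue, so a larger number of slow fibres and more slow transcript per fibre cannot be told apart.

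**Figure D1:**
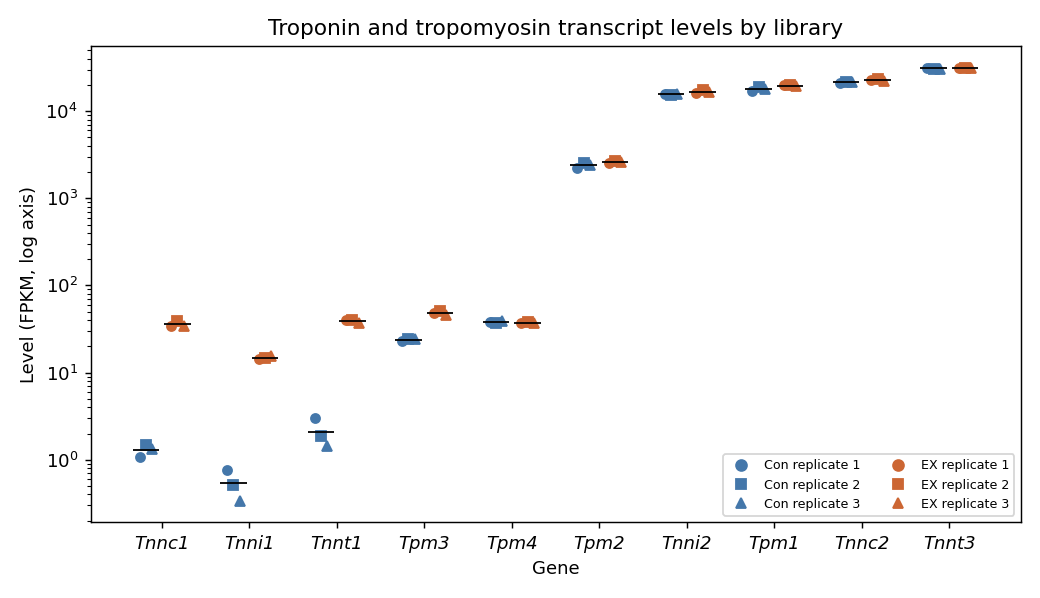
Level of each gene in FPKM (log axis) in the 6 libraries, with Con in blue, EX in orange and a bar at each group mean. The slow troponins Tnnc1, Tnni1 and Tnnt1 lie between 0.34 and 3.01 FPKM in Con and between 14.21 and 40.59 in EX, while the fast troponins and Tpm1 lie between 15214 and 31588 FPKM.

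The slow troponins were close to the limit of detection in Con muscle and well above it in EX muscle. The sequence before a transcription start of each, and before both starts of Tpm3, is shown because these 4 genes were the slow members and all 4 were higher in EX. Each run is the 250 bases upstream of the start, 5′ to 3′ on the strand of the gene, from RefSeq on GRCm38.p6. A window was found for 8 of the 10 genes, and Tnni2 and Tnnt3 had no entry. Tnni1 also has 2 listed starts, at positions 135799421 and 135799511 of chromosome 1, and the window of the first is shown because the window of the other overlaps it, with 2 of its E-boxes and both CACC boxes. The capitals mark matches, on either strand, to the E-box CANNTG, the CACC box CCACCC, the M-CAT motif CATTCC and the TATA box TATAAA.
Tnnc1, chr14:31208062-31208311, plus strand: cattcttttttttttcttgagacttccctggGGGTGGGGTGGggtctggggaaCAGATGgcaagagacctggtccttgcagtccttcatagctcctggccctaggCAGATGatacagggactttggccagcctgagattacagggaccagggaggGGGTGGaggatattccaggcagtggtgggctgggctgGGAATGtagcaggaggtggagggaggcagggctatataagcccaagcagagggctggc
Tnni1, chr1:135799171-135799420, plus strand: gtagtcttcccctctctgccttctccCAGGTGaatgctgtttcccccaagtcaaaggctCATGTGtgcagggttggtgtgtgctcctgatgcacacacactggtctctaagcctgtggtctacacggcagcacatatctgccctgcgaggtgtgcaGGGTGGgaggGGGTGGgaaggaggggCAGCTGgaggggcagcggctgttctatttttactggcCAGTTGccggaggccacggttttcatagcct
Tnnt1, chr7:4515976-4516225, minus strand: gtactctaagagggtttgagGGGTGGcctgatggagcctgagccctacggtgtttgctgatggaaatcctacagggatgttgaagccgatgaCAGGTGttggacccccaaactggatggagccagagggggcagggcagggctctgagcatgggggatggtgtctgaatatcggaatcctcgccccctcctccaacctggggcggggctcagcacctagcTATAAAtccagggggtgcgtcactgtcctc
Tpm3, upstream start, chr3:90072401-90072650, plus strand: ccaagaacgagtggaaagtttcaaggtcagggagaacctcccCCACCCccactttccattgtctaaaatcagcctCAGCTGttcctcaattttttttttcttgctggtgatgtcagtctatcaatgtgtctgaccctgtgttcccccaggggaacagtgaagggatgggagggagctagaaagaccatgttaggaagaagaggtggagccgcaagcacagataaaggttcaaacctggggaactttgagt
Tpm3, internal start, chr3:90079271-90079520, plus strand: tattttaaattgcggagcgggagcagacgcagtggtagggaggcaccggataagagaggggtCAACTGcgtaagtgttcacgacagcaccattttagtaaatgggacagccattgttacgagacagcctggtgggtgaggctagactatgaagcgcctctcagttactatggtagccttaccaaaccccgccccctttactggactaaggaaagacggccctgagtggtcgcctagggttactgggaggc
An E-box, the motif of the myogenic factors, was found in all 5 windows, but it is short and was present in 66.2% of 32851 promoter windows of the same length. A CACC box was found in the windows of Tnnc1, Tnni1, Tnnt1 and the upstream start of Tpm3, and in 28.1% of all windows. In Tnnc1, the CACC boxes that begin at -219 and -214 from the start share a base. Among the other genes with a window, Tpm2 also held a CACC box and Tpm4 held 3, Tnnc2, Tpm1 and Tpm2 held an E-box, and Tpm1 held an M-CAT motif, so these motifs were not limited to the slow genes. The M-CAT motif at -58 of Tnnc1 and the TATA box at -30 of Tnnt1 are motifs found in 12.6% and 12.4% of all windows. No match to MEF2, the site of another muscle factor, was found in these windows, and 2.92% of all windows held one. These matches describe the sequence and were not tested as sites.

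Tnnc1 (gene 21924), the calcium sensor of slow fibres, had 6, 9 and 8 counts in Con replicates 1 to 3. In EX replicates 1 to 3 it had 220, 250 and 224 counts. The groups were far apart, and no EX library came near the Con range. Scaled to library size, the mean level was 0.50 ± 0.0708 CPM (SD, n = 3) without training and 14.6 ± 1.09 CPM with it. The log2 fold change, EX over Con, was 4.84 with a standard error of 0.18 (edgeR, adjusted p = 1.1e-17). Tnni1 (21952), the inhibitory subunit of slow fibres, was counted 8, 6 and 4 times in the Con libraries and 174, 181 and 192 times in the EX libraries. Its log2 fold change was also 4.84 (standard error 0.20, adjusted p = 2.4e-16), and it was 4.84 without the filter as well. The lowest Con value, 4 counts in replicate 3, was just above the limit of 3 counts that a count of 0 allows. Tnnt1 (21955), the tropomyosin-binding subunit of slow fibres, went from Con counts of 30, 22 and 15 to EX counts of 451, 469 and 421. Con replicate 1 held the highest Con count of Tnnt1 and also of Tnni1, but not of Tnnc1. The log2 fold change of Tnnt1 was 4.26 (standard error 0.14, adjusted p = 4.2e-19). The log2(FPKM + 1) scale understates the change of low genes, and there limma gave smaller fold changes, at 4.02 for Tnnc1, 3.37 for Tnni1 and 3.72 for Tnnt1. The Con counts set the precision of these changes. Summed over the 3 Con libraries they were 23 for Tnnc1 (exact 95% Poisson interval 14.6 to 34.5), 18 for Tnni1 (10.7 to 28.4) and 67 for Tnnt1 (51.9 to 85.1), intervals that cover counting error only.

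The fast troponins were at high levels in both groups and changed little. Tnnc2 (21925), the calcium sensor of fast fibres, had FPKM values of 20997, 21471 and 21439 in Con and 22552, 23370 and 22148 in EX. All 3 EX values lay above all Con values, but by a small margin. Its log2 fold change on counts was 0.16 with a standard error of 0.03 (edgeR, adjusted p = 7.7e-04). Tnni2 (21953), the inhibitory subunit of fast fibres, had 15761, 15214 and 15736 FPKM in Con and 16238, 17317 and 16507 in EX. Its log2 fold change was 0.16 (standard error 0.03, adjusted p = 9.1e-04). Tnnt3 (21957), the fast troponin T, was the most abundant of the 10 genes per length in every library, at 31588, 30800 and 30375 FPKM in Con and 31184, 31587 and 31027 in EX. The groups overlapped in FPKM. On counts its log2 fold change was 0.07 (standard error 0.03, adjusted p = 0.108), and without Con replicate 1, the library with its highest Con level, it was 0.10 (adjusted p = 0.0115). With limma on log2(TPM + 0.1) its sign turned, to -0.019 (adjusted p = 0.729). The small rises of Tnnc2 and Tnni2 depended on the scale as well. On the log2(FPKM + 0.1) scale limma gave 0.09 for Tnnc2 (adjusted p = 0.148) and 0.10 for Tnni2 (adjusted p = 0.132), while the slow troponins stayed past the threshold on each scale.

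The slow share of each troponin subunit, the level of the slow gene as a percentage of the slow and fast genes together in FPKM, was small in both groups. For troponin C it was 0.00514%, 0.00680% and 0.00616% in the Con libraries and 0.153%, 0.166% and 0.156% in the EX libraries. The means were 0.00603% ± 0.000835 (SD, n = 3) and 0.158% ± 0.00673, a ratio of 26.2. For troponin I the share was 0.00344% ± 0.00133 in Con and 0.0887% ± 0.00497 in EX, a ratio of 25.7. For troponin T it was 0.00677% ± 0.00249 in Con and 0.124% ± 0.00547 in EX, a ratio of 18.4. In all 3 subunits, every EX library was above every Con library (exact permutation test, two-sided, p = 0.1 in each, 0.1 after adjustment over the 4 shares with tropomyosin), and 0.1 is the smallest p that 3 mice against 3 allow. Even in EX muscle the slow gene gave at most 0.166% of the FPKM of a subunit in any library. The order of the subunits depended on the scale. As a share of read counts not divided by length, the EX libraries held 0.165% to 0.178% for troponin C, 0.161% to 0.178% for troponin I and 0.119% to 0.130% for troponin T, so that troponin C and I overlapped.

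**Figure D2:**
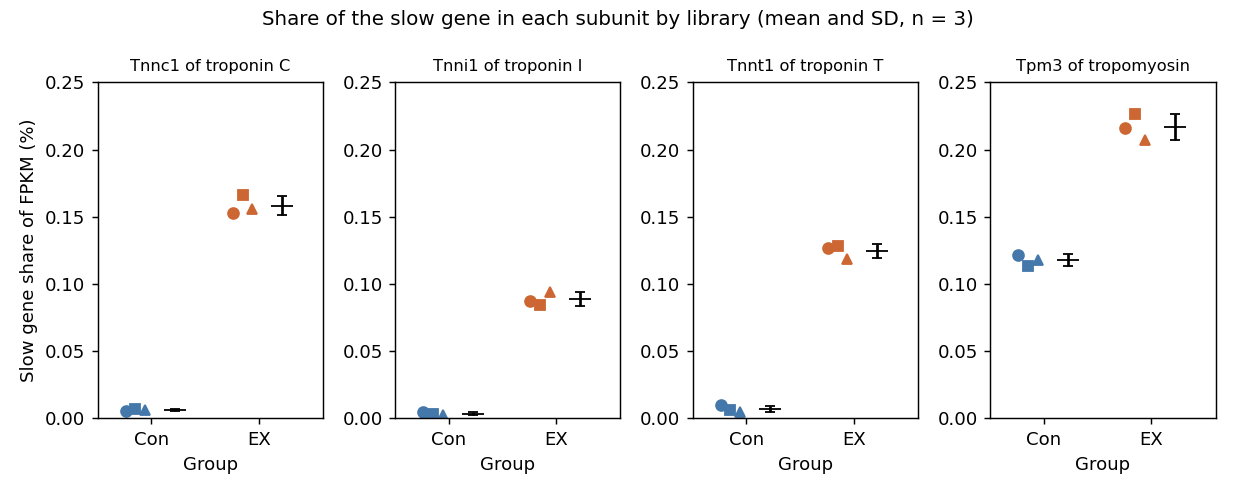
Share of the slow gene in FPKM (%) for troponin C, I and T and for tropomyosin, with Con libraries in blue, EX libraries in orange and the group mean and SD (n = 3) beside them. The troponin shares stand below 0.01% in each Con library and between 0.0845% and 0.166% in EX, and the Tpm3 share has means of 0.118% in Con and 0.217% in EX.

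The ratios among the slow troponins were less even in Con muscle than in EX muscle, except that of Tnnt1 to Tnni1. In FPKM, Tnnt1 was 3.69 to 4.18 times Tnni1 in Con and 2.36 to 2.79 times in EX. These ranges did not overlap, and the difference in the log2 ratio was -0.58 (exact permutation test, two-sided, p = 0.1, adjusted over 6 ratios 0.2). The ratio of Tnnt1 to Tnnc1 ranged from 1.08 to 2.79 in Con and from 1.05 to 1.15 in EX, which overlapped (exact permutation p = 0.2, adjusted 0.3). That of Tnni1 to Tnnc1 ranged from 0.258 to 0.704 in Con and from 0.377 to 0.450 in EX, which also overlapped. The wide Con ranges go with counts between 4 and 30. Among the fast troponins, Tnnt3 was 1.42 to 1.5 times Tnnc2 in Con and 1.35 to 1.40 times in EX, without overlap (exact permutation p = 0.1, adjusted 0.2). The ratio of Tnni2 to Tnnc2 overlapped, with medians of 0.734 and 0.741.

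Summed over slow and fast genes, the transcript level of a subunit was close to that of its fast gene. Troponin C totalled 21304 ± 265 FPKM (SD, n = 3) in Con and 22726 ± 625 in EX, and troponin I 15571 ± 309 and 16702 ± 562. For both, the lowest EX total was above the highest Con total (exact permutation test, two-sided, p = 0.1, adjusted over 4 totals 0.133). Troponin T totalled 30923 ± 617 in Con and 31305 ± 290 in EX, a difference within the spread between libraries (exact permutation p = 0.4).

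Of the tropomyosins, Tpm3 changed most. Tpm3 (59069) was counted 609, 695 and 674 times in the Con libraries and 1017, 1053 and 993 times in the EX libraries. The lowest EX count was well above the highest Con count. In CPM it rose from 43.2 ± 1.0 (SD, n = 3) to 64.5 ± 2.05, and the log2 fold change was 0.58 with a standard error of 0.05 (edgeR, adjusted p = 1.3e-09). Tpm1 (22003), the main tropomyosin of fast fibres, had 16811, 18824 and 17888 FPKM in Con and 19830, 19714 and 19186 in EX. Con replicate 1 was the lowest library. Its log2 fold change was 0.19 (standard error 0.03, adjusted p = 1.1e-04). Tpm2 (22004), the tropomyosin of both fibre types, had 2248, 2530 and 2436 FPKM in Con and 2539, 2656 and 2596 in EX, and its log2 fold change was 0.14 (adjusted p = 3.0e-03). On the log2(FPKM + 0.1) scale limma gave 0.14 for Tpm1 (adjusted p = 0.0906) and 0.11 for Tpm2 (adjusted p = 0.142). Tpm4 (326618), the cytoskeletal member, stood at 38.2, 36.7 and 38.8 FPKM in Con and 37.3, 38.1 and 37.1 in EX, so that the groups overlapped. By edgeR it differed by 0.04 on the log2 scale (adjusted p = 0.574), and the sign turned with limma on log2(FPKM + 0.1), log2(FPKM + 1) and log2(TPM + 0.1).

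Within tropomyosin, Tpm1 gave 87.9% ± 0.0979 (SD, n = 3) of the FPKM in Con and 87.9% ± 0.316 in EX, and Tpm2 11.8% ± 0.0983 and 11.7% ± 0.315. These shares overlapped between the groups. Tpm4 gave 0.187% ± 0.0146 in Con and a lower 0.168% ± 0.00208 in EX, without overlap. The share of Tpm3 was 0.122%, 0.113% and 0.118% in the Con libraries and 0.216%, 0.227% and 0.207% in the EX libraries. Every EX library was above every Con library, and the EX mean was 1.84 times the Con mean (exact permutation test, two-sided, p = 0.1). Tpm3 thus started from a higher share than the slow troponins and differed by a smaller factor. The total of the 4 tropomyosins was 20307 ± 1149 FPKM in Con and 22260 ± 342 in EX, with no overlap (exact permutation p = 0.1, adjusted over 4 totals 0.133).

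In EX muscle, Tnnc1 and Tnnt1 reached the range of the cytoskeletal Tpm4 per length, but Tnni1 did not. In FPKM, Tnni1 stood lowest at 14.8 ± 0.690 (SD, n = 3), followed by Tnnc1 at 36.0 ± 2.45, Tpm4 at 37.5 ± 0.569 and Tnnt1 at 39.0 ± 2.01. The ranges of Tnnc1, Tpm4 and Tnnt1 overlapped, so these neighbours were not separated. Tpm3 followed at 48.2 ± 2.82. Tpm2 at 2597 ± 58.6 stood next, far below Tnni2, Tpm1, Tnnc2 and Tnnt3. In Con muscle the order was Tnni1 at 0.537 ± 0.211, Tnnc1 at 1.29 ± 0.192, Tnnt1 at 2.10 ± 0.818, Tpm3 at 23.9 ± 0.507 and Tpm4 at 37.9 ± 1.11. There the ranges of Tnnc1 and Tnnt1 overlapped, and Tpm3 was below Tpm4 in every library, while in EX it was above Tpm4 in every library. TPM gave the same order as FPKM, but the EX counts of Tpm3, 993 to 1053, stayed below those of Tpm4, 1061 to 1099. FPKM and TPM are divided by length, and the implied length of Tpm3 is given next.

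Counts and FPKM gave unlike changes for Tpm3. Its FPKM values were 23.3, 24.2 and 24.1 in Con and 48.6, 50.9 and 45.3 in EX, 2.02 times the Con mean, while its CPM was 1.49 times the Con mean. The count divided by the FPKM and by the library total gives a length per read in proportion to the one that the authors' quantification used. It need not equal the length of an annotated transcript. From Con replicate 1 to 3 it shifted by similar amounts in genes of unlike length, from 372 to 361 bases for Tnnc2 and from 1778 to 1767 for Tpm4. For Tpm3 this implied length was 1889, 1855 and 1796 bases in Con and 1300, 1274 and 1364 bases in EX. All EX values lay below all Con values, with a log2 difference of -0.50 (standard error 0.03). Among the 10220 genes that averaged 1 FPKM and 50 counts or more, this was the largest difference by size, and the 2nd largest without Con replicate 3. Its adjusted p was 0.0675 with limma, so that it did not pass the threshold, and 0.0480 with a filter of at least 5 FPKM and 200 counts. No gene passed at the first filter with limma, while 635 genes had an unadjusted p under 0.05, and the groups did not overlap for 9.39% of all genes. For the other 9 genes described here the implied length overlapped between the groups.

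**Figure D3:**
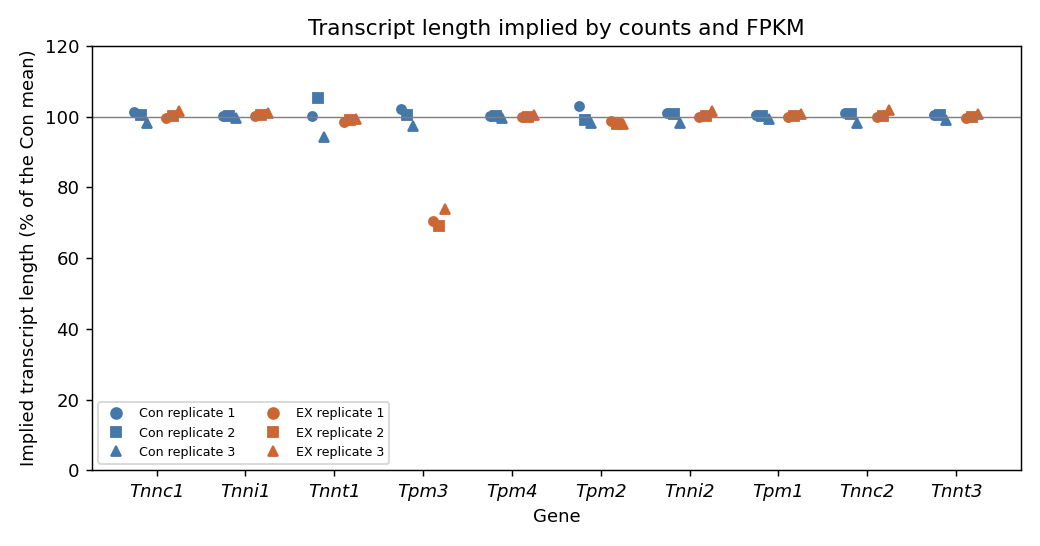
Transcript length implied by the count and the FPKM of each gene, as a percentage of its Con mean, for the 6 libraries. The 3 EX libraries of Tpm3, at 1274 to 1364 bases against 1796 to 1889 in Con, stand apart, and the groups overlap for each of the other 9 genes.

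Tpm3 makes both muscle and cytoskeletal tropomyosin. The muscle form begins at the upstream start and the cytoskeletal forms at the internal start, whose upstream sequences are shown above. The GENCODE M21 annotation of GRCm38 lists 5 complete protein-coding transcripts of the gene. From the upstream start, chr3:90072649-90092130 gives a transcript of 1139 bases in 10 exons and chr3:90072651-90100902 one of 2233 bases in 9 exons. From the internal start region, transcripts of 2230, 2190 and 1090 bases arise. Each start region therefore holds both long and short transcripts. The deposited values are per gene, and the share of each transcript was not analysed here.

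The other genes of the thin filament changed in both directions, and by less than the slow troponins. Of a list of 24 such genes, 22 passed the filter, of which 10 were higher in EX, 6 were lower and 6 did not pass the threshold. Their median log2 fold change was 0.08, against -0.00090 for all genes tested. Actc1, the cardiac actin also used by developing muscle, stood at 508.6 ± 31.6 CPM (SD, n = 3) in Con and rose to 1597 ± 49.8 CPM, by 1.65 on the log2 scale (edgeR, adjusted p = 5.5e-22). Acta1, the actin of adult skeletal muscle, rose by 0.22 and Actn3, the alpha-actinin of fast fibres, by 0.20. Capza2, a subunit of the protein that caps the barbed end of actin, rose by 0.19. Among the genes that fell, Nrap, which acts in the assembly of actin into myofibrils, fell by 0.40, Xirp1, an actin-binding protein, by 0.30 and Lmod2, a leiomodin at the pointed end of thin filaments, by 0.18.

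Tnnt2 and Tnni3, the cardiac troponin genes of the thin filament list, had low counts in both groups. Tnnt2, the cardiac troponin T that is also made in developing muscle, was counted 20, 21 and 18 times in Con muscle and 28, 50 and 41 times in EX muscle, with no overlap. Its log2 fold change was 0.95 with a standard error of 0.24 (edgeR, adjusted p = 5.2e-03). Tnni3, the cardiac troponin I, was counted 2, 3 and 3 times in Con muscle and 0, 5 and 1 times in EX muscle and lay under the filter.

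**Figure D4:**
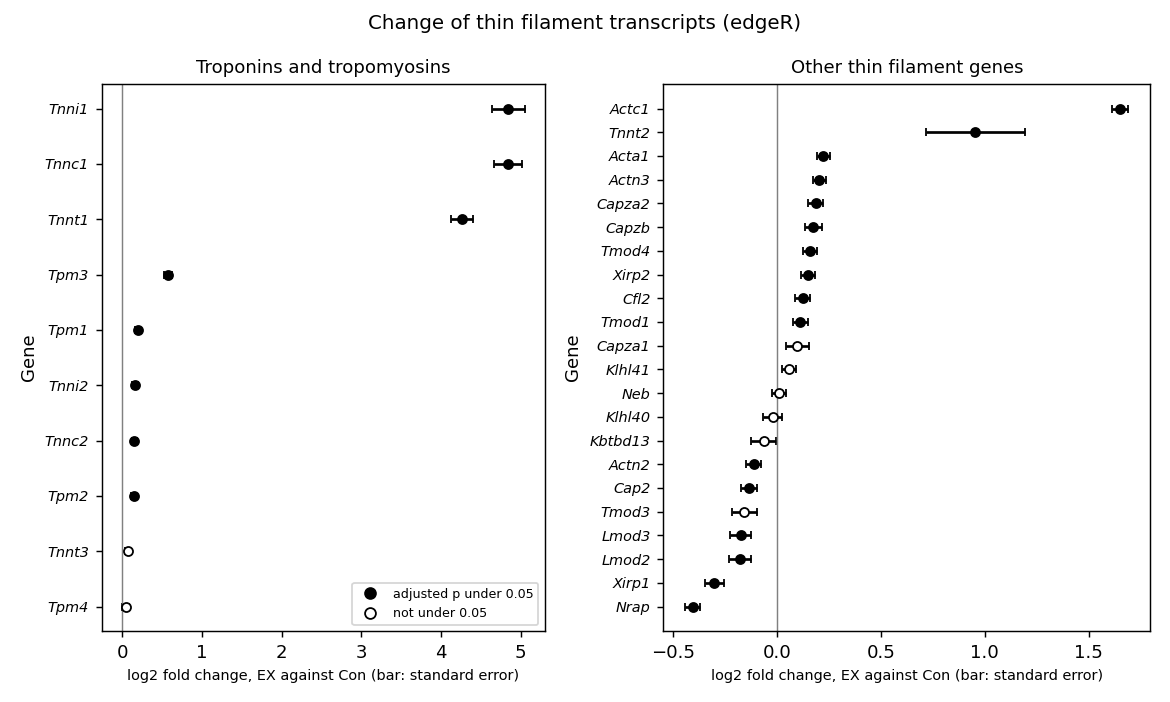
Log2 fold change of EX against Con with its standard error for the 10 troponin and tropomyosin genes and, on a narrower axis, for the 22 other thin filament genes tested. Filled points have an adjusted p under 0.05, and the slow troponins at 4.26 to 4.84 stand far above Actc1 at 1.65, the largest change among the other genes.

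The other genes of slow fibres did not all follow the slow troponins. Of 13 listed genes, 12 passed the filter. In EX 6 of them were higher, 4 were lower, and 2 did not pass the threshold. Myh7, the slow myosin heavy chain, rose by 6.65 on the log2 scale and Myl2, its regulatory light chain, by 3.48. Sln, a small regulator of the calcium pump, rose by 1.18 from counts near the limit. Of the rest that were higher, Atp2a2 rose by 1.13, Myl3 by 0.40 and Casq2 by 0.25. The 4 that fell were Myoz2, a Z-disc protein, at -0.81, Ankrd2, a stretch-responsive protein, at -0.78, Pln, which restrains the calcium pump, at -0.69, and Mb at -0.14. Pln had low counts, 37 to 40 in Con and 20 to 32 in EX. These risers and the 4 that fell were named after their values were seen. The median log2 fold change of the 12 slow fibre genes tested was 0.32. The summed level of the slow list was 2394 to 2536 CPM in Con and 2426 to 2520 in EX. Most of it was Mb, the oxygen store myoglobin, at 2282 CPM in Con and 2072 in EX, and the other 12 genes summed to 200.2 to 205.8 CPM in Con and 379.7 to 401.3 in EX, without overlap. Sums without the most abundant gene of a list, here and for the markers of other cells, were added after the values were seen. Of 14 genes of fast fibres, 11 were higher, 2 were lower and 1 did not pass the threshold, with a median of 0.20. The summed level of the fast list was 141563 to 143500 CPM in Con and 154249 to 160351 in EX, higher in EX without overlap. Myh2, the myosin heavy chain of oxidative fast fibres, fell by 0.75, while Pvalb, a calcium buffer, rose by 0.35 and Myoz3, a Z-disc protein, by 0.32.

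Markers of other cells were measured beside these changes. Of 9 listed heart genes, 6 were in the table, and Nppa had 1 count in 1 EX library and no count in the other libraries, which allows up to 3 counts in each of them. Myh6, the cardiac alpha myosin, had estimated counts of 9, 10 and 17 in Con muscle and 6.03, 10.02 and 11.07 in EX muscle. Gja1, which other cells also use, fell by 0.36, and Myl4, an atrial and embryonic light chain, rose by 0.86. The summed level of the heart list was 34.2 to 35.9 CPM in Con and 27.9 to 31.9 in EX, and without Gja1 it was 3.57 to 4.13 CPM in Con and 5.77 to 6.01 in EX. Of 11 genes of developing fibres, 6 were tested and 5 of them were higher in EX, led by Actc1 and Myog, a factor of muscle differentiation, at 0.99. The summed level of the 11 genes was 561.4 to 623.0 CPM in Con and 1661 to 1758 in EX, most of it Actc1, and without Actc1 it was 73.8 to 80.2 CPM in Con and 112.0 to 118.0 in EX. The embryonic myosin heavy chain Myh3, which lay under the filter, had 14 to 16 counts in Con muscle and 115 to 128 in EX muscle. Of 10 tendon and fibroblast genes, 6 were higher in EX and none was lower, with Col1a1 at 0.86 and Tnmd at 0.85, and their summed level was 1009 to 1043 CPM in Con and 1396 to 1420 in EX. Of 7 macrophage genes tested, 6 were higher, led by C1qc at 1.26 and C1qb at 1.03, with a summed level of 44.0 to 48.4 CPM in Con and 78.6 to 86.0 in EX. Of 8 endothelial genes, 1 was higher and 4 were lower, with Flt1 falling by 0.27 and Cdh5 by 0.26, and a summed level of 794.3 to 807.3 CPM in Con and 688.7 to 712.3 in EX. Of 8 smooth muscle genes tested, which matter here because smooth muscle also uses Tpm1, Tpm2 and Tpm4, 1 was higher and 2 were lower, with Myh11 falling by 0.30 and Mylk by 0.25, and the summed level was 2761 to 3023 CPM in Con and 2802 to 3022 in EX. Most of that sum was Des, at 2567 CPM in Con and 2623 in EX, the intermediate filament gene that is also on the skeletal muscle list. The other smooth muscle genes summed to 323.3 to 338.0 CPM in Con and 305.1 to 320.1 in EX, lower in EX without overlap. The part of these cell types in the changes of the troponins and tropomyosins was not tested.

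The genes nearest in pattern to the slow troponins, and to Tpm3, were sought among the 10883 genes that passed the filter, leaving out the members. Genes under the filter, such as Myh3, were not ranked. Likeness was measured as the root mean square distance, over the 6 libraries, between log2 CPM values centred on the Con mean. Myl2 was nearest to the mean profile of Tnnc1, Tnni1 and Tnnt1, at a distance of 0.69, and Myh7 followed at 1.5. Ccl21a, a chemokine of lymphatic vessels, stood at 1.84, Actc1 at 1.96 and Ccl21c, a near-identical copy of Ccl21a with which it can share reads, at 2.0. The slow troponins themselves were within 0.25 of their mean profile. For Tpm3 the nearest genes were Kcng4, a potassium channel subunit, at 0.023, Ppp1r3c, a regulatory subunit for glycogen metabolism, at 0.032, and Mical2, an enzyme that oxidises actin, at 0.039. Their log2 fold changes were 0.58, 0.56 and 0.61, against 0.58 for Tpm3.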

How the data were processed

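RNA sequencing of hind leg muscle from 3 Con and 3 EX mice was analysed. The authors read paired ends of 150 bp on DNBseq and mapped them with HISAT to GRCm39, per their methods, while the submitters' processing notes name GRCm38.p6, cutadapt, MultiQC and featureCounts. The deposited table gives each gene's estimated counts with FPKM and TPM, and the authors normalized FPKM and TPM for length and depth. featureCounts is named without its role or settings in the sources used here. How it would give counts that are not whole, or a length that varies between libraries, was not tested, and this limits what the implied length means. The 6 further columns hold the authors' group means and were not used. Between 4.18% and 4.44% of the estimated counts in a library were not whole, but all counts of the 10 genes were.

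The counts were rounded, scaled by TMM and tested by quasi-likelihood in edgeR 4.0.16 (R 4.3.3) over the 10883 genes that averaged 1 FPKM or more, with Benjamini-Hochberg adjustment and a threshold of 0.05. Shares and ratios used FPKM and exact permutation tests over libraries. The implied length, the count divided by the FPKM and the library total, was compared with limma 3.58.1 on its log2 value, centred on the median gene of each library. The total is that of the listed genes, which sets the scale in bases. Alternatives were DESeq2 1.42.0, limma on log2(FPKM + 0.1), log2(FPKM + 1) and log2(TPM + 0.1), other filters and scalings, a replicate block and each library left out in turn.

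The genes and lists were chosen with earlier results of these data known. By rule, named genes were the 10 members, Tnnt2, Tnni3 and, among genes past the threshold, the 8 largest changes of the thin filament list, the 3 largest of the slow and fast lists and the 2 largest of each list of other cells, with the nearest 5 and 3 genes to the slow troponins and Tpm3. Nppa, Myh6, Myh3, Mb, Des, Atp2a2, Myl3, Casq2, Myoz2, Ankrd2, Pln, Hdac8 and Mical3 were named outside it, after their values were seen. Promoter windows and transcripts are on GRCm38, and no position was taken from the deposited table, which has none. The labels give no batch. P-values rest on the spread between these libraries, and those of edgeR, DESeq2 and limma also draw on the spread of other genes.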

Additional observations from a re-analysis of the deposited data

How the results depend on the processing

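The rise of Tnnc1, Tnni1, Tnnt1 and Tpm3 kept its direction and its side of the threshold under each alternative run, and 4 of 4 slow genes passed in each. Over these alternatives the log2 fold change was 4.02 to 4.94 for Tnnc1, 3.37 to 5.16 for Tnni1, 3.72 to 4.59 for Tnnt1 and 0.55 to 1.01 for Tpm3. The rises of Tnnc2, Tnni2, Tpm1 and Tpm2 passed in each edgeR and DESeq2 fit, with or without 1 library, but not with limma on log2(FPKM + 0.1), log2(FPKM + 1) or log2(TPM + 0.1). Tnnt3 turned to -0.019 with limma on log2(TPM + 0.1) and passed without Con replicate 1. Tpm4 turned to -0.014 with limma on log2(FPKM + 0.1), -0.014 on log2(FPKM + 1) and -0.050 on log2(TPM + 0.1).

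The number of genes past the threshold was 1949 (991 higher, 958 lower) and 1228 with DESeq2. It was 1344 to 1857 with 1 library left out. The split of higher and lower calls was 772 and 1259 with the top 20 genes left out of the library totals, 411 and 1037 with limma on log2(FPKM + 0.1), 411 and 1032 on log2(FPKM + 1) and 340 and 1684 on log2(TPM + 0.1). The causes were not tested.

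With read counts not divided by length, the EX minus Con difference of the slow share in percentage points was 0.164 in place of 0.152 for troponin C, 0.162 in place of 0.0852 for troponin I and 0.0671 in place of 0.0990 for tropomyosin, since the construction drops the length. Against Tpm1 alone, the difference for Tpm3 was 0.112. With 1 library left out, the differences were 0.148 to 0.155 for troponin C, 0.0825 to 0.0874 for troponin I, 0.116 to 0.121 for troponin T and 0.0940 to 0.104 for tropomyosin.

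For implied length, 4 genes passed with a filter of at least 5 FPKM and 200 counts, and 0 to 2 with 1 library left out (2 without EX replicate 3). The log2 difference of Tpm3 was -0.52 to -0.47 with 1 library left out (adjusted p 0.0734 to 0.291). Differences of the other genes lay near 0, and all but that of Tpm2 changed sign under an alternative. The difference of Tnni1 was -0.0010 from counts and TPM. With 1 library left out the ranges were -0.0087 to 0.013 for Tnnc1, -0.0072 to 0.014 for Tnnc2, -0.0068 to 0.013 for Tnni2, -0.057 to 0.022 for Tnnt1, -0.0072 to 0.0034 for Tnnt3, -0.0025 to 0.0061 for Tpm1 and -0.0031 to 0.00080 for Tpm4.

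Deviations from the group mean had correlations of -0.084, -0.052 and -0.073 between Con and EX libraries with the same replicate number. For the other Con and EX pairs they were 0.0053 to 0.067. Centring within groups of 3 constrains these values, so they cannot show whether libraries with the same number share a batch. With a replicate block, 1782 genes passed the threshold, 8 of the 10 genes described here passed, and the adjusted p of the implied length of Tpm3 was 0.353. Depth limits the Con values of the slow troponins, with 4 to 30 counts per library.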

Other observations

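After Tpm3, the genes with the largest differences in implied length were Hdac8 at 0.39 (standard error 0.16, adjusted p = 0.858 with limma) and Mical3 at -0.35 (standard error 0.14, adjusted p = 0.807). For both the EX and Con libraries overlapped, unlike Tpm3. Of all 10220 genes, 139 had a difference of at least 0.1 on the log2 scale in either direction, and 98.6% were within it.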
